A study of Sesamum indicum with 195 samples.

Results

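The roots of Ezhi No.2 (EG), the sesame genotype that the labels call waterlogging sensitive, were compared after 8 and 12 h of waterlogging with the control roots of the same hours. These are 12 of the 195 samples of the series, chosen by genotype, condition and hour: 3 waterlogged and 3 control samples at 8 h, and 3 waterlogged and 3 control samples at 12 h. In the study, potted plants at the flowering stage stood in water above the soil surface or were kept as controls, and a single plant was taken from each of 3 pots per condition and hour. Pots held several plants, and whether samples of different hours came from the same pot is not stated. For comparison, 12 samples of the waterlogging tolerant genotype ZZM2541 (R2G) with the same conditions and hours were used, together with EG samples at 4 h (6 samples), at 16, 20 and 24 h (18 samples) and at 10 h of waterlogging (3 samples). The label root could not be checked against marker genes, because the gene table used for names gives identifiers and positions of sesame genome v1.0 but no descriptions. Genes are therefore given by identifier and position, with no role.

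Waterlogged soil holds little oxygen, since gases diffuse far more slowly through water than through air. Plant roots in such soil lose aerobic respiration, turn to glycolysis and fermentation for ATP, and reduce growth and other costly processes. In well studied plants a small set of genes is induced within hours by transcription factors that are stable only when oxygen is low, while many other transcripts decline.

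Expression was measured as TPM, in which the reads of a gene are divided by its length and scaled so that every sample has the same total. A gene was expressed in this text's sense when its TPM was at least 1, and 16313 to 16687 genes passed this level in the 6 waterlogged samples, against 17812 to 18217 in the 6 control samples. The 10 most abundant genes took 4.83 to 5.61% of the TPM of a waterlogged sample, against 3.80 to 4.49% in control samples. On log2(TPM + 1), Pearson's correlation between samples lay between 0.966 and 0.991 within waterlogging at both hours, between 0.966 and 0.976 within the control at 8 h and between 0.976 and 0.985 within the control at 12 h. Between waterlogged and control samples it lay between 0.878 and 0.941. The third control replicate at 8 h was nearer to the control at 12 h (0.963 to 0.967) than the other two were (0.929 to 0.939). TPM does not carry the number of reads behind a value, so no interval for counting error was computed.

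Waterlogging at 8 and 12 h went with far more falls than rises in EG roots. With the hour as a factor (6 against 6 samples), 322 of the 18178 genes tested rose (1.77%) and 2629 fell (14.5%). A gene was called at an adjusted p (limma, Benjamini-Hochberg) under 0.05 and a log2 fold change of TPM + 1 of at least 1 in size. The median log2 fold change was 1.23 among the rises and -1.39 among the falls. A change of at least 2 was reached by 21 rises and 465 falls, a change of at least 3 by 4 and 93, and a change of at least 4 by 0 and 22. Over all genes tested the median was -0.22. When samples were rescaled by the median, over genes, of their ratio to the geometric mean of all samples (median-ratio scaling), the median was -0.03, 576 genes rose and 1916 fell, and 2238 of the calls were shared. Falls outnumbered rises on both scales, but by a much smaller margin after the scaling.

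The groups were also apart in single samples. Of all genes tested, 1049 (5.77%) were higher in each of the 6 waterlogged samples than in each of the 6 control samples, and 3844 (21.1%) were lower. Among the called genes, this held for 219 of the 322 rises and 2180 of the 2629 falls. These genes were called from the same 12 samples, so these counts and the direction of the shares of TPM that follow are no separate support. The genes that rose held 8.41 to 9.81% of the TPM at 8 h and 9.95 to 10.5% at 12 h in waterlogged samples, against 2.14 to 3.11% at 8 h and 5.05 to 5.40% at 12 h in control samples. The genes that fell held 2.65 to 3.58% and 2.65 to 2.95% in waterlogged samples, against 9.45 to 12.2% and 9.11 to 9.67% in control samples. Genes that rose had a median control level of 26.8 TPM and genes that fell one of 10.7 TPM, where all genes tested had 16.2 TPM.

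Among called genes whose 6 waterlogged and 6 control samples did not overlap, the 5 largest rises were those of LOC105171727, LOC105174607, LOC105171791, LOC105164801 and LOC105171585, all annotated as protein coding. LOC105171727 (linkage group 10, 2600824 to 2601556) had 4139, 3150 and 2892 TPM at 8 h and 4090, 3588 and 3777 TPM at 12 h in waterlogged roots. In control roots it had 97.3, 114 and 169 TPM at 8 h and 669, 824 and 893 TPM at 12 h. All waterlogged samples were thus above all controls, and the controls of 12 h were well above those of 8 h. The log2 fold change was 3.51 (SE 0.38, adjusted p = 7.7e-06). LOC105171791 (linkage group 10, 2598415 to 2599158) lies next to it and had the same order of groups, with 1200, 1016 and 884 TPM at 8 h and 1424, 1394 and 1508 TPM at 12 h in waterlogged roots, against 26.1, 29.6 and 61.7 TPM and 304, 439 and 495 TPM in control roots. Its log2 fold change was 3.31 (SE 0.45, adjusted p = 5.5e-05).

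LOC105171585 lies nearer the start of linkage group 10 (722385 to 723820). It had 2187, 1682 and 1600 TPM at 8 h and 2368, 2169 and 2413 TPM at 12 h in waterlogged roots. In control roots it had 55.2, 125 and 144 TPM at 8 h and 679, 914 and 894 TPM at 12 h. It too was several times higher in the control at 12 h than at 8 h, and its log2 fold change over both hours was 2.83 (SE 0.42, adjusted p = 0.00011). LOC105174607 (linkage group 11, 14938956 to 14941193) was a gene of lower level, with 65.4, 48.6 and 39.1 TPM at 8 h and 65.6, 38.0 and 67.6 TPM at 12 h in waterlogged roots. The control roots had 1.21, 0.831 and 2.18 TPM at 8 h and 6.79, 8.03 and 11.5 TPM at 12 h, so that it was near 1 TPM in the control at 8 h. The log2 fold change was 3.50 (SE 0.33, adjusted p = 2.7e-06). LOC105164801 (linkage group 6, 17532533 to 17534400) had 149, 145 and 185 TPM at 8 h and 114, 126 and 127 TPM at 12 h in waterlogged roots, against 4.60, 10.3 and 15.4 TPM and 11.6, 21.7 and 27.5 TPM in control roots. For this gene the controls of the 2 hours overlapped, and the log2 fold change was 3.30 (SE 0.30, adjusted p = 2.5e-06).

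The 5 largest falls under the same rule left at most 9.92 TPM in any waterlogged sample. LOC105157575 (linkage group 1, 6869660 to 6870579) had 9.92, 4.12 and 6.06 TPM at 8 h and 3.08, 2.34 and 3.92 TPM at 12 h in waterlogged roots, against 443, 2712 and 564 TPM and 84.3, 161 and 1421 TPM in control roots. Its log2 fold change was -6.48 (SE 0.61, adjusted p = 2.9e-06), and its controls spread widely, with replicate 2 at 8 h and replicate 3 at 12 h far above the others. LOC105172653 (linkage group 10, 15189541 to 15190288) was high in the same 2 control samples. It had 0.146, 0.364 and 0.177 TPM at 8 h and 0.244, 0.159 and 0.311 TPM at 12 h in waterlogged roots, against 50.2, 218 and 69.3 TPM and 4.85, 17.8 and 166 TPM in control roots (log2 fold change -5.33, SE 0.66, adjusted p = 2.7e-05).

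The other three falls had narrower controls. LOC105159706 (linkage group 4, 632770 to 634655) had 1.61, 0.738 and 0.569 TPM at 8 h and 1.23, 0.695 and 0.721 TPM at 12 h in waterlogged roots, against 138, 91.0 and 55.0 TPM and 77.1, 56.5 and 48.4 TPM in control roots, a log2 fold change of -5.28 (SE 0.22, adjusted p = 1.9e-08). LOC105159675 (linkage group 4, 424962 to 426039) had 0.0584, 0.121 and 0.0589 TPM at 8 h and 0.183, 0.796 and 0.0623 TPM at 12 h in waterlogged roots, against 61.7, 11.6 and 39.0 TPM and 92.1, 57.3 and 44.8 TPM in control roots (-5.23, SE 0.33, adjusted p = 1.7e-07). LOC105177883 (linkage group 15, 4763064 to 4764876) had 9.02, 6.61 and 2.00 TPM at 8 h and 3.29, 4.99 and 4.11 TPM at 12 h in waterlogged roots, against 359, 387 and 220 TPM and 141, 75.9 and 215 TPM in control roots (-5.19, SE 0.33, adjusted p = 1.6e-07). In each of them the lowest control sample was far above the highest waterlogged sample, with the closest pair in LOC105177883 (75.9 TPM in a control against 9.02 TPM in a waterlogged sample).

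**Figure D1:**
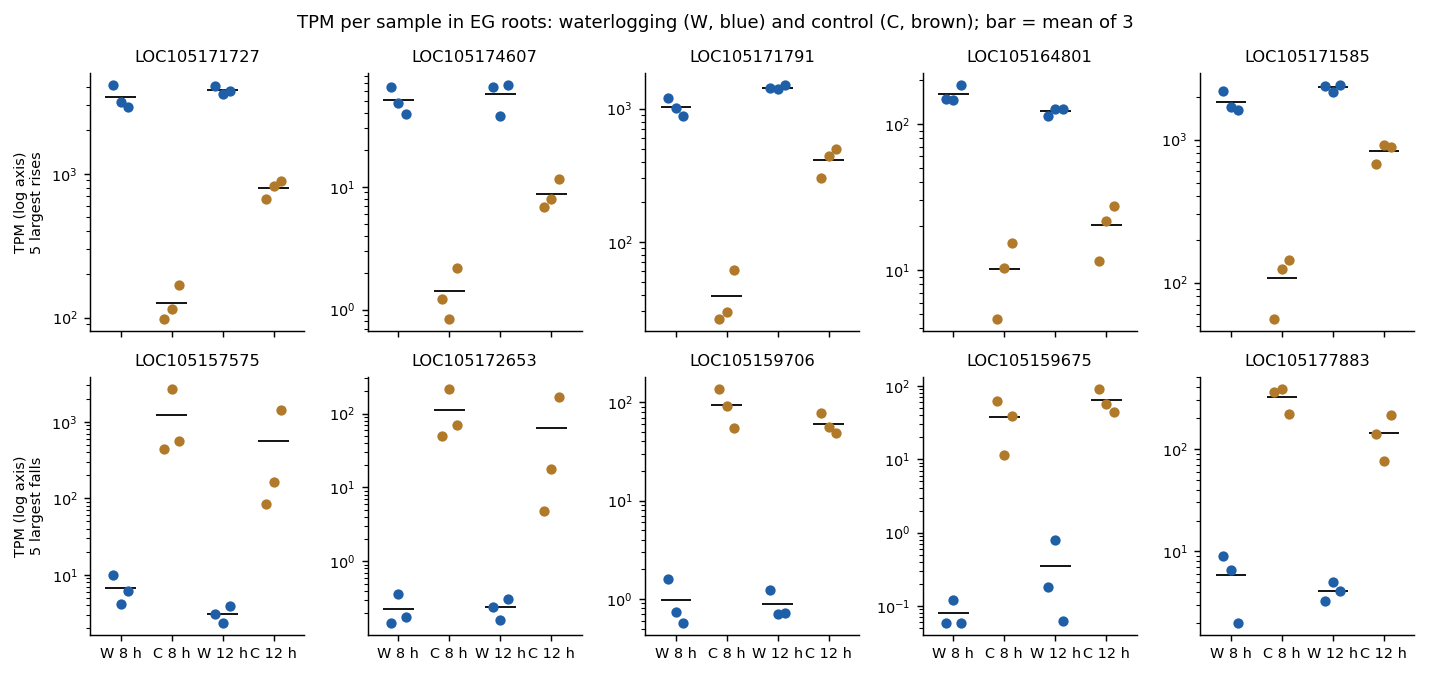
TPM on a log axis in each of the 12 samples for the 5 genes with the largest rises (upper row) and the 5 with the largest falls (lower row); points are samples, bars are means of 3, waterlogging (W) is blue and control (C) is brown. These genes were chosen among called genes whose waterlogged and control samples did not overlap. By this choice the waterlogged points lie apart from the control points in every panel. In LOC105171727, LOC105174607, LOC105171791 and LOC105171585 the control at 12 h lies above the control at 8 h.

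At 4 h, 3 of the 5 largest rises had risen (LOC105171727, LOC105171791 and LOC105171585), where 6.44% of all genes tested had, and 4 of the 5 largest falls had fallen, where 16.1% of all had. The exceptions were LOC105174607 (0.78, SE 0.39, adjusted p = 0.087), LOC105164801 (0.28, SE 0.43, adjusted p = 0.60) and, among the falls, LOC105159675 (0.25, SE 0.44, adjusted p = 0.65). LOC105171727 averaged 2199 TPM at 2 h, 3394 TPM at 8 h, 3819 TPM at 12 h and 9426 TPM at 22 h in waterlogged EG roots, and 2702 TPM at 32 h. In EG control roots its mean was 67.8 TPM at 0 h, 643 TPM at 4 h, 127 TPM at 8 h, 795 TPM at 12 h and 123 TPM at 16 h, so that the control at 4 and 12 h stood above its neighbours in time. LOC105164801 averaged 160 TPM at 8 h and 122 TPM at 12 h in waterlogged roots, but 56.1 TPM at 6 h and 30.8 TPM at 10 h. LOC105159706 averaged 32.0 TPM at 2 h, 8.04 TPM at 4 h, 0.971 TPM at 8 h and 0.881 TPM at 12 h in waterlogged roots, and LOC105177883 52.5, 27.1, 5.87 and 4.13 TPM at the same hours. At 4 h their log2 fold changes were -1.45 (SE 0.32) and -1.76 (SE 0.43).

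**Figure D2:**
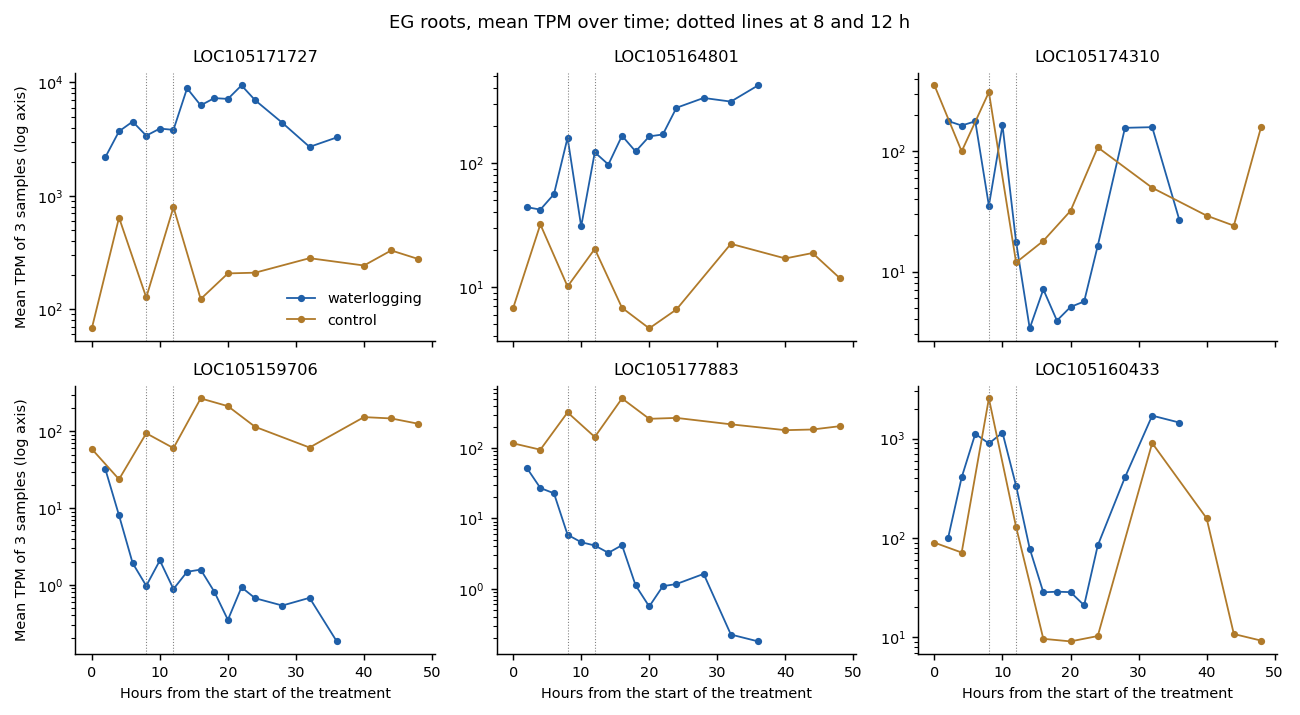
Mean TPM of 3 samples on a log axis against hours from the start of the treatment for 6 genes in EG roots, with waterlogging in blue, control in brown and dotted lines at 8 and 12 h. LOC105159706 and LOC105177883 decline to 8 h in waterlogged roots, and LOC105171727 is higher in the control at 4 and 12 h than at 8 and 16 h.

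Of the 3 most abundant genes of waterlogged EG roots, 1 was called. LOC105170794 (linkage group 9, 6393455 to 6400720) had 7335, 7712 and 8787 TPM at 8 h and 7918, 9566 and 8133 TPM at 12 h in waterlogged roots, against 3740, 4008 and 5975 TPM and 7256, 7203 and 5042 TPM in control roots. Its log2 fold change of 0.62 (SE 0.20, adjusted p = 0.019) did not reach the fold threshold. LOC105178923, which is not placed on a linkage group, had 6457, 5681 and 6810 TPM at 8 h and 7208, 5894 and 5879 TPM at 12 h in waterlogged roots, against 2773, 3023 and 2438 TPM and 2586, 3562 and 3590 TPM in control roots. It rose by 1.09 on the log2 scale (SE 0.16, adjusted p = 0.00010), or by 0.96 without replicate 1, below the threshold. LOC105172989 (linkage group 10, 16882993 to 16885350) had means of 4965 and 5258 TPM at 8 and 12 h of waterlogging, against 3151 and 4616 TPM in the control, and did not pass the test (log2 fold change 0.43, SE 0.17, adjusted p = 0.052).

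Loss below 1 TPM was seen in more genes than gain from below 1 TPM, and both in a small part of the 18178 genes tested. In 384 genes all 6 waterlogged samples were under 1 TPM and all 6 controls at or above it. The reverse pattern held for 4 genes, of which none averaged above 2.32 TPM in waterlogged roots. The cut was applied to TPM without median-ratio scaling, and these counts were not repeated with it. Of the 384 genes, 18 averaged at least 10 TPM in the control. Besides LOC105172653 and LOC105159675 these included LOC105165358 (linkage group 6, 20836387 to 20840121), with 0.182 to 0.685 TPM in waterlogged and 11.6 to 97.1 TPM in control samples, and LOC105161064 (linkage group 4, 14757269 to 14761432), with 0.244 to 0.796 TPM in waterlogged and 18.0 to 72.9 TPM in control samples. LOC105159674 and LOC105159676, the neighbours of LOC105159675 on linkage group 4 (420392 to 421474 and 427416 to 428368), were among them too. LOC105159674 had 0.0589 to 0.350 TPM in waterlogged and 6.62 to 47.4 TPM in control samples, and LOC105159676 had 0.0606 to 0.623 TPM in waterlogged and 15.8 to 72.1 TPM in control samples. These 18 genes lay on 10 linkage groups, apart from 1 that is unplaced.

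Some of the genes that rose were neighbours on the chromosome. Of 308 genes that rose and had a next tested gene on their linkage group, 27 (8.77%) were followed by another gene that rose, where 1.77% of all genes tested rose. For the falls the count was 503 of 2555 (19.7%), where 14.5% of all fell. Linkage group 10 held 43 rises among 1139 genes tested (3.78%), while the other linkage groups held between 1.01 and 2.30%. All 3 stretches of at least 3 consecutive tested genes that rose were on linkage group 10. These stretches were found after the values were seen and are a description. No sequences of these genes were used, so near-identical copies, between which reads could be split or dropped when unique matches are counted, could not be told from unrelated genes.

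The longest of the 3 stretches held 8 genes within 21 kb (2580433 to 2601556), LOC105171788, LOC105171724, LOC105171725, LOC105171789, LOC105171726, LOC105171790, LOC105171791 and LOC105171727, which are all the genes annotated in that interval. Their log2 fold changes ran between 1.53 and 3.51. The gene with the smallest change, LOC105171790, averaged 126 TPM at 8 h and 162 TPM at 12 h in waterlogged roots, against 18.5 and 142 TPM in control roots. LOC105171726 averaged 527 and 710 TPM in waterlogged roots, against 81.6 and 432 TPM in control roots. All 8 genes rose at 8 h (3.32% of all genes tested) and 4 of the 8 rose at 12 h (1.65% of all), which are the samples that the stretch was found in. The control at 12 h was higher than the control at 8 h in all 8 genes, by 2.51 to 3.44 on the log2 scale. Each of these steps was called, where 2.71% of all genes tested were called higher. These control samples also entered the choice of the stretch. Between 8 and 12 h of waterlogging the 8 genes differed by 0.19 to 0.49. None was called, where 0.385% of all genes tested were called in either direction, so this does not set the 8 genes apart. In R2G, where 2.60% of all genes tested rose, all 8 genes rose over the same hours, by 1.98 to 3.14.

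A second stretch of 7 genes within 47 kb (3119124 to 3166097) rose by 1.02 to 1.90. It includes LOC105171804, with 2683 and 2714 TPM at 8 and 12 h of waterlogging against 705 and 1606 TPM in the control, and LOC105171805, with 2988 and 2927 TPM against 817 and 1891 TPM. LOC105171802 lies inside LOC105171804, and reads of overlapping genes may not have been assigned to the right one. At 8 h alone 6 of the 7 genes rose (3.32% of all genes tested) and at 12 h alone 3 did (1.65% of all). The first gene, LOC105171785, was not called at 8 h (0.50) or in R2G (0.95), and it fell at 4 h (-1.03). The third stretch held 4 genes within 28 kb (8244829 to 8273158), LOC105172208, LOC105172209, LOC105172210 and LOC105172211, that rose by 1.43 to 2.63. LOC105172208 changed most, with 167 and 199 TPM at 8 and 12 h of waterlogging against 10.4 and 81.0 TPM in the control. All 4 genes rose at 8 h alone and 2 of the 4 at 12 h alone. Both stretches were found in these same samples. The control step between 8 and 12 h was called as higher at 12 h in 6 of the 7 and 4 of the 4 genes of these stretches. It was so called in 2.71% of all genes tested. The same control samples entered the choice of the stretches, so these counts are no separate support.

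**Figure D3:**
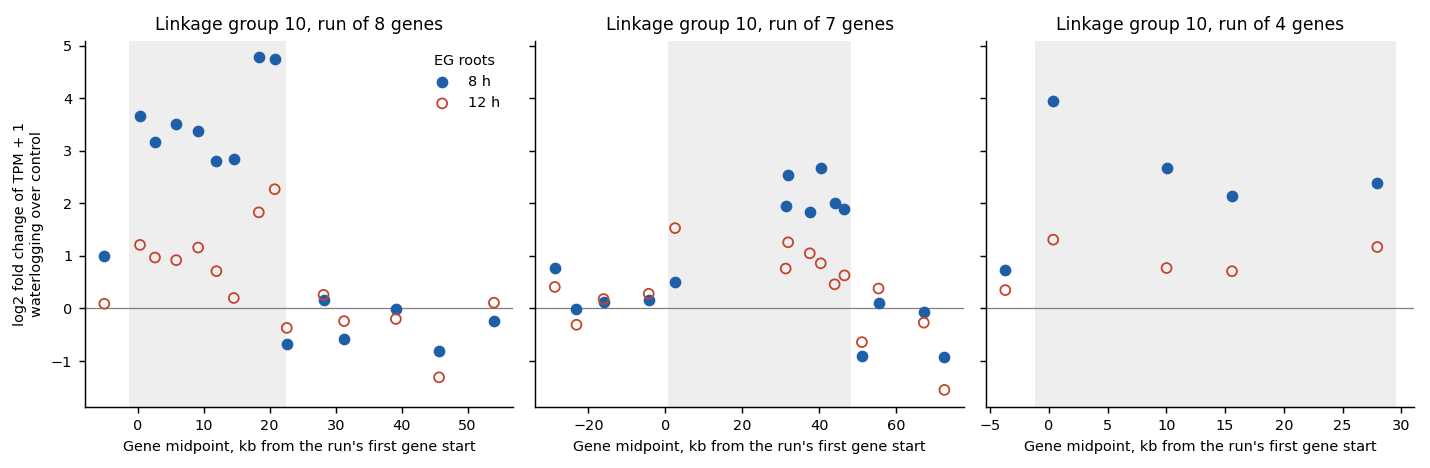
Log2 fold change of TPM + 1 (waterlogging over control) in EG roots at 8 h (filled blue) and 12 h (open red) for tested genes along 3 intervals of linkage group 10, placed by gene midpoint in kb from the start of the first gene of each stretch; grey marks the stretch. Within the first stretch the values at 8 h all exceed those at 12 h.

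Among the falls there were 83 such stretches, the longest with 7 genes within 60 kb of linkage group 4 (614617 to 674666): LOC105159780, LOC105159781, LOC105159704, LOC105159705, LOC105159706, LOC105159707 and LOC105159709. They fell by 1.30 to 5.28 on the log2 scale. All 7 fell at 8 h (19.8% of all genes tested) and 6 at 12 h (12.0% of all), which are the samples that the stretch was found in. In R2G all 7 fell too (17.2% of all genes tested). LOC105159705 had the highest level, with means of 45.4 and 29.5 TPM at 8 and 12 h of waterlogging against 244 and 184 TPM in the control. LOC105159707 averaged 0.162 and 0.556 TPM, against 25.4 and 15.3 TPM. None of the 7 genes had a called control step between 8 and 12 h. As only 6.40% of all genes tested had one in either direction, this does not set the 7 genes apart.

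At 8 h alone 604 genes rose (3.32%) and 3591 fell (19.8%), and at 12 h alone 300 rose (1.65%) and 2181 fell (12.0%). After median-ratio scaling these counts were 1123 and 2338 at 8 h and 410 and 1916 at 12 h. The rises of both hours shared 123 genes, which is 20.4% of those at 8 h and 123 of the 300 at 12 h. The falls shared 1650 genes, 45.9% of those at 8 h and 75.7% of those at 12 h, and 4 genes were called in opposite directions.

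The difference between the effects at 12 and 8 h was called in 884 genes (4.86%), higher at 12 h in 570 and lower in 314. This count rested on all 3 replicates. It was 6, 3 and 335 without replicate 1, 2 or 3, with an unadjusted p under 0.05 in 4045, 3160 and 4668 genes, and 1409 without the third control replicate at 8 h, and after median-ratio scaling 213 genes were higher and 448 lower at 12 h. Between the 2 hours, 1164 genes differed in the control (6.40%; 493 higher and 671 lower at 12 h, or 690 and 450 after scaling; 699 without replicate 2 and 1583 without control replicate 3 at 8 h) and 70 differed under waterlogging (0.385%; 16 higher and 54 lower; 2 without replicate 1, 2 without replicate 2 and 48 without replicate 3). These comparisons share samples and their values are given side by side. In the 570 genes with a higher effect at 12 h, the median difference between 12 and 8 h was 0.38 under waterlogging and -0.89 in the control. In the 314 genes with a lower effect it was -0.14 under waterlogging and 1.29 in the control. The control difference was the larger in size in 452 of the 570 and 295 of the 314, and in 66.9% of all genes tested. Hour of the experiment and hour of the day cannot be told apart from these samples.

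**Figure D4:**
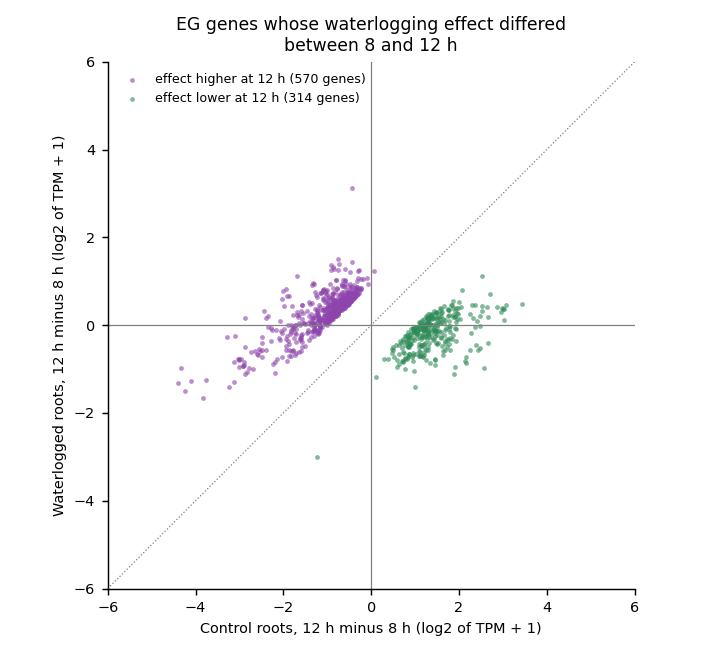
Each point is a gene whose waterlogging effect differed between 8 and 12 h in EG roots, with its difference between 12 and 8 h in control roots on the x axis and in waterlogged roots on the y axis (log2 of TPM + 1). The 570 genes with a higher effect at 12 h lie mostly left of 0 and the 314 with a lower effect mostly right of 0 on the control axis, with smaller spread on the waterlogging axis.

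The genes with the largest differences between the hours showed this in their samples. LOC105160433 (linkage group 4, 9668188 to 9671092) had 943, 1271 and 471 TPM at 8 h and 390, 316 and 300 TPM at 12 h in waterlogged roots, against 3630, 2003 and 2000 TPM and 56.2, 165 and 165 TPM in control roots. It fell at 8 h (-1.56, SE 0.43, adjusted p = 0.0088) and rose at 12 h (1.52, SE 0.43, adjusted p = 0.015), with a difference of 3.08 (SE 0.61, adjusted p = 0.020). LOC105174310 (linkage group 11, 13350321 to 13351886) had 48.7, 30.8 and 26.3 TPM at 8 h and 17.2, 11.2 and 24.5 TPM at 12 h in waterlogged roots, against 589, 208 and 136 TPM and 14.9, 11.5 and 9.37 TPM in control roots (difference 3.35, SE 0.63, adjusted p = 0.018). In both genes the control levels of 8 and 12 h were further apart than the waterlogged levels.

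In the other direction, LOC105168907 (linkage group 8, 15804333 to 15809173) had 440, 320 and 304 TPM at 8 h and 278, 179 and 140 TPM at 12 h in waterlogged roots, against 37.7, 55.3 and 51.8 TPM and 184, 261 and 215 TPM in control roots. It rose at 8 h by 2.85 (SE 0.24) and had a value of -0.19 (SE 0.24) at 12 h, a difference of -3.04 (SE 0.34, adjusted p = 0.011). LOC105155254, which is unplaced, had 0.759, 5.33 and 0.530 TPM at 8 h and 0.823, 1.12 and 0.903 TPM at 12 h in waterlogged roots, against 4.07, 2.70 and 0.776 TPM and 21.4, 19.0 and 18.2 TPM in control roots (-3.07, SE 0.67, adjusted p = 0.023). LOC105162915 (linkage group 5, 18298075 to 18299734) had 5.28, 17.1 and 1.85 TPM at 8 h and 1.31, 2.63 and 4.08 TPM at 12 h in waterlogged roots, against 4.66, 8.05 and 0.551 TPM and 29.1, 26.1 and 19.7 TPM in control roots (-3.55, SE 0.94, adjusted p = 0.038). It lies within LOC105162966, so its values are uncertain, and its difference passed neither without replicate 1 (adjusted p = 0.19) nor without replicate 2 (adjusted p = 0.18). Without replicate 2, none of these 5 genes passed (adjusted p between 0.11 and 0.18).

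LOC110012319 (linkage group 7, 1203239 to 1203942) had a pattern of its own, with 0.940, 0.742 and 0.986 TPM at 8 h and 14.5, 17.6 and 14.5 TPM at 12 h in waterlogged roots, against 0.898, 1.17 and 1.31 TPM and 0.673, 0.566 and 0.448 TPM in control roots. The difference between the hours was 3.57 (SE 0.21, adjusted p = 1.5e-05). In R2G it was at 0.977, 0.981 and 0.569 TPM at 12 h of waterlogging and at 13.2, 9.41 and 10.8 TPM in the control of 12 h. Over the EG groups its mean was 12.0 TPM at 10 h and 39.1 TPM at 18 h of waterlogging, but 0.889 TPM at 8 h, 0.949 TPM at 14 h and 0.795 TPM at 24 h of waterlogging. In the EG control it was 12.7 TPM at 0 h, 1.13 TPM at 8 h and 7.99 TPM at 32 h. It was thus high or low in whole groups of 3, with no condition or genotype in common. The labels give no batch of extraction or sequencing, so a batch cannot be told apart from these groups, and the differences by hour and genotype of this gene are values of these groups of samples. It overlaps the lncRNA gene LOC110012321, and whether strand was used in counting is not given in the sources used here.

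In the tolerant genotype R2G, waterlogging at 8 and 12 h went with 473 rises (2.60%) and 3118 falls (17.2%), or 856 and 2198 after scaling. Of the EG calls, R2G shared 224 rises (69.6% of those in EG, 47.4% of those in R2G) and 2042 falls (77.7% and 65.5%), and 3 genes were called in opposite directions. The effect itself differed between EG and R2G in 390 genes (2.15%), 226 higher and 164 lower in EG. This count was 178 without replicate 1 (59 higher and 119 lower), 16 without replicate 2 and 279 without replicate 3, and after scaling 173 genes were higher and 196 lower. Of 586 genes that fell in EG and were not called in R2G, 60 had a called difference, as had 6 of the 96 such rises. Most genes called in EG alone were therefore not shown to respond differently in R2G.

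**Figure D5:**
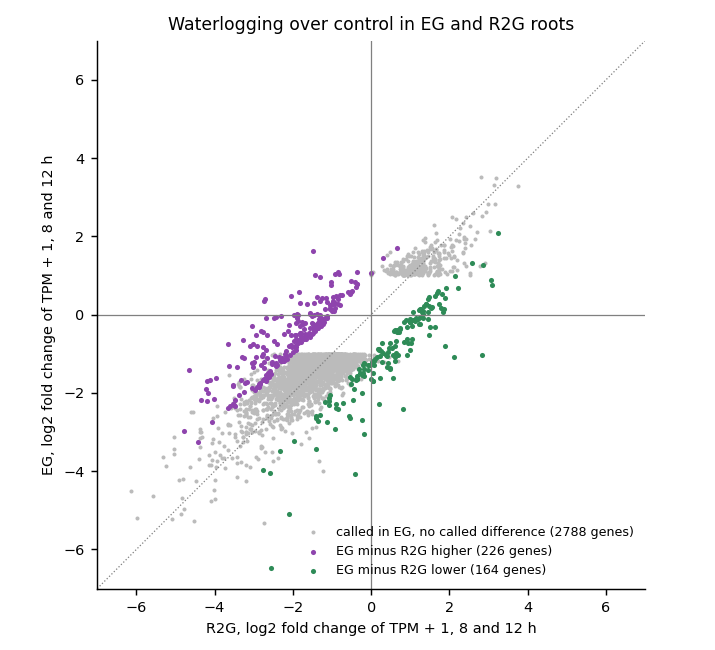
Log2 fold change of TPM + 1 (waterlogging over control, 8 and 12 h) in EG roots on the y axis against R2G roots on the x axis, for genes called in EG or with a called difference between the genotypes; purple and green mark a higher and a lower effect in EG, grey the genes without a called difference, and the dotted line equal effects. By the definition of the colours, the 226 purple points lie above the dotted line and the 164 green points below it.

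Several of the largest genotype differences were in genes with a wide spread between replicates. LOC105165756 (linkage group 6, 24534809 to 24535669) had 21.4, 34.4 and 32.3 TPM at 8 h and 16.9, 11.1 and 12.5 TPM at 12 h in waterlogged EG roots, against 22.9, 134 and 47.7 TPM and 8.60, 27.7 and 126 TPM in EG control roots. Waterlogged R2G roots had 82.7, 231 and 127 TPM at 8 h and 52.4, 138 and 162 TPM at 12 h, against 21.3, 15.5 and 7.26 TPM and 7.08, 24.8 and 37.2 TPM in R2G control roots. It rose in R2G (2.82, SE 0.53) and did not pass in EG (-1.02, SE 0.53, adjusted p = 0.12), with a difference of -3.84 (SE 0.75, adjusted p = 0.0068). LOC105156117 (linkage group 1, 1654456 to 1658369) fell less in EG (-1.41, SE 0.53) than in R2G (-4.65, SE 0.47), a difference of 3.24 (SE 0.67, adjusted p = 0.0091). It had 4.31 to 37.3 TPM in waterlogged EG roots against 5.22 to 92.6 TPM in EG control roots, and 0.411 to 1.69 TPM in waterlogged R2G roots against 27.1 to 118 TPM in R2G control roots.

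LOC105163603 (linkage group 6, 3372197 to 3377312) fell in R2G (-2.72, SE 0.47) and did not pass in EG (0.39, SE 0.56, adjusted p = 0.58), a difference of 3.12 (SE 0.67, adjusted p = 0.011). It had 55.4 to 138 TPM in waterlogged EG roots against 8.36 to 197 TPM in EG control roots, and 5.84 to 52.9 TPM in waterlogged R2G roots against 40.2 to 208 TPM in R2G control roots. LOC105157575, the gene with the largest fall in EG, fell by 2.56 (SE 0.76) in R2G, and the difference was -3.92 (SE 1.07, adjusted p = 0.034). LOC105155647 (linkage group 2, 9151195 to 9153373) fell in EG (-4.07, SE 0.56) and had a value of -0.40 (SE 0.70) in R2G, a difference of -3.67 (SE 0.99, adjusted p = 0.032). In EG control roots it had 64.2, 442 and 156 TPM at 8 h and 20.7, 43.8 and 305 TPM at 12 h, so that the same 2 samples were high as for LOC105157575 and LOC105172653. None of these 5 differences passed without replicate 2, where their adjusted p lay between 0.15 and 0.39. LOC110012319 also differed between the genotypes (3.12, SE 0.20, adjusted p = 1.7e-08).

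The calls of 8 and 12 h overlapped in part with those of the shorter treatment. At 4 h, 1170 genes rose in EG (6.44%) and 2919 fell (16.1%), or 1881 and 1899 after scaling. Of the 322 rises of 8 and 12 h, 57 had risen at 4 h (17.7%, or 4.87% of those at 4 h), and of the 2629 falls 843 had fallen at 4 h (32.1%, or 28.9%). The effect at 8 and 12 h differed from that at 4 h in 4525 genes (24.9%), higher in 1931 and lower in 2594. Of the 1666 genes that fell at 8 and 12 h and were not called at 4 h, 894 had a called difference. A change of direction was seen in 46 genes that fell at 4 h and rose later and in 120 that rose at 4 h and fell later. The 46 are 14.3% of the later rises, where 16.1% of all genes tested fell at 4 h. The 120 are 4.56% of the later falls, where 6.44% of all rose at 4 h. Neither share was above that of all genes. The difference was called in each of the 46 and 120 genes, which calls in opposite directions nearly imply, so it adds no support.

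LOC105160791 (linkage group 4, 11901119 to 11904846) was among the genes that fell first and rose later. At 4 h it had 4.48, 4.41 and 3.93 TPM in waterlogged roots, against 39.2, 31.6 and 38.4 TPM in control roots. At 8 h it had 25.2, 19.4 and 30.8 TPM in waterlogged roots, against 7.10, 8.98 and 12.0 TPM, and at 12 h 52.2, 49.3 and 27.0 TPM, against 23.3, 14.5 and 17.2 TPM. The effect differed from that at 4 h by 4.07 (SE 0.29, adjusted p = 1.6e-11). LOC105159686 (linkage group 4, 477971 to 483054; difference 4.03, SE 0.33) and LOC105164124 (linkage group 6, 8642319 to 8643183; difference 3.91, SE 0.30) had the same order. At 4 h LOC105159686 had 20.1, 11.8 and 21.2 TPM in waterlogged roots, against 108, 81.9 and 102 TPM in control roots, and all its waterlogged samples of 8 h (76.6 to 239 TPM) were above the 8 h controls (27.9 to 51.9 TPM).

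Of the genes that rose first and fell later, LOC105162966 (linkage group 5, 18284313 to 18311085) had 37.9, 28.1 and 32.3 TPM at 4 h in waterlogged roots, against 0.822, 0.310 and 0.391 TPM in control roots. At 8 and 12 h it had 0.235 to 6.12 TPM in waterlogged roots, against 2.34 to 17.4 TPM in control roots, and the effect differed from that at 4 h by -6.58 (SE 0.48, adjusted p = 1.9e-11). Its fall was called at 12 h alone (-3.28, SE 0.50, adjusted p = 0.00039) and not at 8 h alone (-0.90, SE 0.50, adjusted p = 0.15). Its control was higher at 12 h than at 8 h by 1.53 (SE 0.50). LOC105162966 contains LOC105162915, so its values are uncertain too. LOC105159674 differed by -5.95 (SE 0.50), with 8.96, 8.94 and 12.9 TPM in waterlogged against 4.80, 0.413 and 3.58 TPM in control roots at 4 h. LOC105164244 (linkage group 6, 9020073 to 9023766) differed by -5.91 (SE 0.78), with 36.1, 13.8 and 20.1 TPM against 7.15, 1.34 and 7.82 TPM at 4 h, and 1.99 to 5.52 TPM in waterlogged roots against 2.75 to 213 TPM in control roots at 8 and 12 h.

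At 16, 20 and 24 h, 1053 genes rose in EG (5.79%) and 6198 fell (34.1%), or 2493 and 4092 after scaling. These included 201 of the 322 rises of 8 and 12 h (62.4%, or 19.1% of the later rises) and 2270 of the 2629 falls (86.3%, or 36.6% of the later falls). The effect at 8 and 12 h differed from the later effect in 4263 genes (23.5%), higher in 3379 and lower in 884, or 2111 and 1569 after scaling. LOC105173346 (linkage group 11, 4389622 to 4397829) rose by 1.35 (SE 0.40) at 8 and 12 h and by 5.38 (SE 0.24) at 16 to 24 h, a difference of -4.02 (SE 0.38, adjusted p = 9.5e-10). LOC105165756 rose at 16 to 24 h (3.12, SE 0.54) and differed by -4.15 (SE 0.86, adjusted p = 0.00013), and LOC105168841 (linkage group 8, 15246473 to 15250911) had a value of -0.77 (SE 0.42, adjusted p = 0.14) at 8 and 12 h and differed by -4.01 (SE 0.52). It rose at 4 h (4.59, SE 0.57) and at 16 to 24 h (3.24, SE 0.33), and fell at 8 h alone (-1.57, SE 0.52, adjusted p = 0.023). In the other direction, LOC105162915 (5.11, SE 0.51), the unplaced LOC105155343 (4.74, SE 0.38) and LOC105162919 (linkage group 5, 18353469 to 18354990; 4.66, SE 0.38) differed most. Their log2 fold changes at 16 to 24 h were -6.21 (SE 0.32), -5.49 (SE 0.24) and -5.57 (SE 0.24), and none was called over 8 and 12 h together. At 12 h alone all 3 fell, with values of -2.88 (SE 0.66, adjusted p = 0.0050), -2.25 (SE 0.49, adjusted p = 0.0038) and -1.68 (SE 0.37, adjusted p = 0.0037).

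The profile of waterlogged EG roots did not move evenly through 10 h. Pearson's correlation between group means on log2(TPM + 1), over the 18178 genes, was 0.988 between 8 and 12 h, but 0.963 between 10 and 8 h and 0.948 between 10 and 12 h. Among 2 to 24 h, the 10 h profile was nearest to 6 h (0.984) and 14 h (0.976). In R2G the values were 0.974 between 8 and 12 h, 0.952 and 0.926 between 10 h and these hours, and 0.984 between 10 and 6 h. In a comparison chosen after the values were seen, 10 h differed from the mean of 8 and 12 h of waterlogging in 1867 genes in EG (10.3%; 856 higher and 1011 lower) and in 2579 in R2G (14.2%; 1267 higher and 1312 lower). Of these, 565 genes were higher in both genotypes (66.0% of those in EG, 44.6% of those in R2G), 766 were lower in both (75.8% and 58.4%), and 0 were called in opposite directions.

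LOC105172599 (linkage group 10, 14828723 to 14829676) averaged 27.6 TPM at 8 h, 248 TPM at 10 h and 21.1 TPM at 12 h of waterlogging in EG, and LOC105156324 (linkage group 2, 14979383 to 14982218) averaged 2.29, 35.1 and 2.30 TPM. LOC105176445 (linkage group 13, 4443011 to 4446603) averaged 543, 71.1 and 702 TPM, and LOC105177765 (linkage group 15, 3765170 to 3766860) 15.7, 1.81 and 38.9 TPM. In each of these genes the 3 samples of 10 h lay outside the range of the 6 samples of 8 and 12 h. The genes were chosen after the values were seen, so this is no separate support. Of all genes tested, 14.5% were higher and 19.5% lower in all 3 samples of 10 h than in all 6 of 8 and 12 h. The study took control samples at 8 and 12 h and none at 10 h, so the 10 h samples entered no comparison with a control. With no batch of extraction or sequencing in the labels, the hour and such a batch cannot be told apart in the counts for 10 h.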

How the data were processed

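Root mRNA of single plants was sequenced. Per the paper's methods, the authors checked and trimmed reads with FastQC and Trimmomatic 0.32 and aligned them with STAR. The sesame assembly was v1.0. Uniquely placed reads were assigned to genes by featureCounts, and the authors deposited TPM values for 20271 genes in 195 samples. The deposited TPM columns summed to 999096 to 999827 and none were identical. TPM is relative: a higher share for some genes lowers the others.

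The 18178 genes averaging 1 TPM or more across the table were tested with limma 3.58.1 in R 4.3.3 (eBayes with a trend) on log2(TPM + 1), a scale that understates the change of low genes. The 8 and 12 h test had the hour as a factor, and the other contrasts used group means of the compared samples. Benjamini-Hochberg adjustment ran over all genes, and p-values measure the spread between these plants. Tables and figures were made with Python 3.11.15, pandas 2.3.3 and matplotlib 3.10.9, and the fits were tested on simulated data.

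Named genes were the 5 largest rises and 5 largest falls among called genes whose 6 waterlogged and 6 control samples did not overlap, the 3 largest differences in each direction for 12 against 8 h, EG against R2G, 4 h and 16 to 24 h, and the 3 most abundant genes under waterlogging. Stretches of neighbours, genes under 1 TPM, the 10 h genes, and the comparisons of 10 h and of 12 against 8 h within the control or within waterlogging were chosen after values were seen. Members and rules were chosen with earlier results of these data known. The planned pathway and marker lists could not be built, since the reference table (all 20271 identifiers matched) gives no descriptions.

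Alternative settings used a pseudocount of 0.1, no filter, median-ratio scaling, a replicate block, no variance trend, a spread shared by all samples, 4 group means in place of the hour as a factor, each replicate left out, and the third EG control replicate at 8 h left out, which was added after seeing the data.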

Additional observations from a re-analysis of the deposited data

Results flagged for a closer look

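The waterlogging effect in EG roots differed, by limma contrasts of the effects themselves, between 12 and 8 h in 884 genes, between EG and R2G in 390 genes, between 8 and 12 h and 4 h in 4525 genes, and between 8 and 12 h and 16 to 24 h in 4263 genes. On the log2 scale, the effect at 12 h minus that at 8 h was -2.48 for LOC105171727, -1.89 for LOC105174607, -2.95 for LOC105171791 and -2.67 for LOC105171585, all among the largest rises over both hours. It was -3.55 for LOC105162915, -3.07 for LOC105155254, -3.04 for LOC105168907, 3.57 for LOC110012319, 3.35 for LOC105174310 and 3.08 for LOC105160433.

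The effect in EG minus that in R2G was -3.92 for LOC105157575, -3.84 for LOC105165756, -3.67 for LOC105155647, 3.24 for LOC105156117, 3.12 for LOC105163603 and 3.12 for LOC110012319. The effect at 8 and 12 h minus that at 4 h was -6.58 for LOC105162966, -5.95 for LOC105159674, -5.91 for LOC105164244, 4.07 for LOC105160791, 4.03 for LOC105159686 and 3.91 for LOC105164124. The effect at 8 and 12 h minus that at 16 to 24 h was -4.15 for LOC105165756, -4.02 for LOC105173346, -4.01 for LOC105168841, 5.11 for LOC105162915, 4.74 for LOC105155343 and 4.66 for LOC105162919.

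Samples of EG at 10 h of waterlogging, which have no control of that hour, differed from the mean of 8 and 12 h in 1867 genes, and of the 18178 genes tested 2632 (14.5%) were higher and 3547 (19.5%) lower in all 3 samples of 10 h than in all 6 of 8 and 12 h.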

How the results depend on the processing

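Of 131 counts of called genes under alternative settings, 122 stayed within 1.5 times the main count, and of 405 values of named genes 374 kept their call, 31 no longer passed and 0 changed sign. Without each replicate in turn, the count for 12 against 8 h ranged from 3 to 335 (884 with all), for EG against R2G from 16 to 279 (390), for 12 against 8 h in the EG control from 699 to 1513 (1164) and under waterlogging from 2 to 48 (70). Fewer samples leave fewer degrees of freedom, and the part of single samples in this was not tested. Without the third EG control replicate at 8 h, 1409 genes were called for 12 against 8 h and 1583 for 12 against 8 h in the EG control. The paper states a randomized blocking design with 3 replicates, and whether the replicate numbers stand for its blocks is not stated. Replicate numbers were not taken as pairs in the main fits. Deviations from group means correlated by 0.013 on average between same-numbered samples (-0.17 to 0.333, 18 pairs) and by -0.006 between others (36 pairs). This does not show that the blocks had no effect. With the replicate block, 2946 genes were called for 8 and 12 h, 4196 at 8 h, 2494 at 12 h, 772 for 12 against 8 h, 432 for EG against R2G, 4547 against 4 h and 4263 against 16 to 24 h, all within 1.5 times the counts without the block. A pseudocount of 0.1 gave the largest count for 8 and 12 h, 4167. Median-ratio scaling moved the split of rises and falls, and its cause was not tested. The direction with more genes turned for 12 against 8 h (213 higher, 448 lower) and EG against R2G (173 and 196). It also turned for 12 against 8 h in the EG control (690 and 450) and for 10 h in EG (1028 and 916) and R2G (1324 and 1268). It stayed in the other comparisons. The total counts do not show such turns. The lost calls of named genes were for 12 against 8 h and EG against R2G, and LOC105178923. TPM does not carry the reads behind a value, so the counting precision of low values was not assessed.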
